A study of Mus musculus with 14 samples.

Results

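Livers lacking matrin-3 in hepatocytes, from mice on a high-fat diet, were more accessible than floxed livers at some loci and less accessible at others. Gene bodies held 54.8% of called intervals and 48% of all intervals, and the stretches between genes 30.2% and 29.1%. The comparison set the knockout livers against the floxed livers of the high-fat arm, which is 8 of the 14 livers of the series, over all 105801 intervals of their count table. The knockout group (n = 4) were female mice with a floxed matrin-3 gene (Matr3) and an Albumin-Cre transgene, which drives Cre recombinase from albumin regulatory sequence and so deletes the floxed part in hepatocytes. The floxed group (n = 4) were female littermates with the floxed gene. The labels call them floxed only, and no source used here says whether they carry Cre. All 8 mice had eaten a diet with 60 kcal% fat for 16 weeks, starting at 7 weeks of age, and were fasted for 12 h before collection. By design the other cells of a knockout liver keep the gene, because Cre is meant to be made in hepatocytes. The deletion was not checked by cell type here. No source used here gives the strain background. Chromatin accessibility was measured by ATAC-seq, in which a transposase cuts and tags open DNA, on nuclei from 50 mg of frozen liver. The titles number the females singly, so each library was read as 1 animal.

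Matrin-3 is a protein of the nuclear matrix that binds RNA and DNA. Regulatory DNA such as promoters and enhancers is cut by the transposase when it is open, and the bodies of highly transcribed genes, such as those for plasma proteins in hepatocytes, are often accessible along their length. Liver chromatin also differs between the sexes, since the pattern of growth hormone secretion sets which cytochrome P450, sulfotransferase and urinary protein genes are used.

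Counts within intervals totalled 7.59 to 10.4 M per library. All intervals had 1 width, and levels are given in counts per M counts of the library (CPM). Changes are on the log2 scale, knockout relative to floxed, with their standard error (SE), and "called" means an adjusted p under 0.05 in the edgeR quasi-likelihood test over all intervals, loci or windows. A locus is the sum of all intervals whose nearest protein-coding gene is that gene, within 50 kb, which gave 16304 loci. The first principal component held 25.7% of variance and did not part the groups fully: knockout liver 1 stood at -4.98 against 12.2 to 73.4 in the other knockouts, and floxed liver 3 at 18.9, within the knockout range, against -75 to -41 in the other floxed livers. In bulk tissue, a change in the share of a cell type and a change within its cells cannot be told apart. Markers of hepatocytes were present in every library, with summed levels over 12 loci between 4180 and 7050 CPM in the floxed group and between 3910 and 5470 CPM in the knockouts. The Matr3 locus itself held 86.4, 96.7, 69.9 and 81.1 CPM in floxed livers 1 to 4 and 81.7, 73.5, 77.3 and 72.6 CPM in knockout livers 1 to 4, a log2 fold change of -0.13 (SE 0.09, edgeR adjusted p = 0.692). Its 7 intervals were not called, and they do not check the labels, since no source used here places the deletion.

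Of the 105801 intervals, 795 were called, or 0.751%, with 474 higher (0.448%) and 321 lower (0.303%) in knockout livers. Of the 16304 loci, 70 were called, or 0.429%, with 38 higher (0.233%) and 32 lower (0.196%). Groups did not overlap in 59 of these 70 loci (0.362% of all loci were both called and separate), against 5.11% of all loci and 5.3% of all intervals with groups that did not overlap. At an unadjusted p under 0.05 there were 10801 intervals and 1596 loci. All 70 loci kept their sign with any 1 library left out, and 19 of them kept their call in all 8 such fits. The loci were called from these same libraries. Groups that do not overlap and a kept sign therefore follow in part from the call and are not separate evidence.

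Sequences of the places where the changes stood at a gene start or over small RNA genes are shown first. Only 12 called intervals lay over a promoter, and the promoters of 5 genes among them are printed as the 250 bases before the start, from RefSeq (GRCm38.p6). They are Nr4a1 (chr15:101266596-101266845, plus strand), an orphan nuclear receptor induced by hormones and stress, Dusp8 (chr7:142095285-142095534, minus strand), a phosphatase of stress-activated kinases, Gadd45g (chr13:51846425-51846674, plus strand), a growth arrest gene, Ciart (chr3:95882229-95882478, minus strand), a repressor of the circadian clock, and Cyp2a4 (chr7:26306942-26307191, plus strand), a steroid hydroxylase of female liver. The first 3 rose in knockout livers, and Ciart and Cyp2a4 fell. Capitals mark the core of the cAMP response element (TGACG), the E-box (CACGTG) and the D-box (TTATGNAA), each searched on both strands.
Nr4a1: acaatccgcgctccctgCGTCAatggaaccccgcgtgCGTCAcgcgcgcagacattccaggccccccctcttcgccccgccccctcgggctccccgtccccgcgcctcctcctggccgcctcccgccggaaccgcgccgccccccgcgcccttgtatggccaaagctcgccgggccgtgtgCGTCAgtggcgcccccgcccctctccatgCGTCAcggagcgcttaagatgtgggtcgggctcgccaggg
Dusp8: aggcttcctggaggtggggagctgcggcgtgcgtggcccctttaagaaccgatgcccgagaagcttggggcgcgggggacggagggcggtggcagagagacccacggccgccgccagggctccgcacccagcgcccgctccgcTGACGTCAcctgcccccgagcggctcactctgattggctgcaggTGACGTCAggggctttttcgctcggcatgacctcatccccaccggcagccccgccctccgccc
Gadd45g: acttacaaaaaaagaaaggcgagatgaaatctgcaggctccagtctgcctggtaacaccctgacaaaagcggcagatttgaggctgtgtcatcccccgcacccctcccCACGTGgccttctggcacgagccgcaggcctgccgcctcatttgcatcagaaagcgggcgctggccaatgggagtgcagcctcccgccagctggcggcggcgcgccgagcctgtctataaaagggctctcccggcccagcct
Ciart: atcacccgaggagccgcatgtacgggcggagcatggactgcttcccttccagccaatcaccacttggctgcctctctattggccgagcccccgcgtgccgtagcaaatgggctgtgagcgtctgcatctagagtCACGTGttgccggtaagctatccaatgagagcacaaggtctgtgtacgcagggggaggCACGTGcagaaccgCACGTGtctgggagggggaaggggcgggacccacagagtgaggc
Cyp2a4: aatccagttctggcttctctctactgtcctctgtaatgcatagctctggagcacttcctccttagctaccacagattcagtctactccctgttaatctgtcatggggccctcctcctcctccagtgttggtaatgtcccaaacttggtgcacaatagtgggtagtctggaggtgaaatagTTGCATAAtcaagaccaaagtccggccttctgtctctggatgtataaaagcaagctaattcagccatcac

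The TGACG core occurred 4 times before Nr4a1 and 4 times before Dusp8, where the matches at 107 and 104 bases before the start overlap on opposite strands, as do those at 63 and 60. At least 1 core stood in 17.8% of the 32851 promoters of the table. The E-box occurred 3 times before Ciart, at 116, 58 and 44 bases, and once before Gadd45g, against at least 1 in 6.02% of all promoters. The D-box, the site of the clock factor DBP and its relatives, occurred once before Cyp2a4, against 3.07% of promoters. In all 9 motifs were searched in the 13 promoters under called intervals, and both the motifs and those shown in capitals were chosen after the values were seen. The core of the cAMP response element was in 3 of the 13, the E-box in 2, the D-box in 1 and the AP-1 site TGANTCA in 1 (6.75% of all promoters). The NBRE, AAAGGTCA, was in 0 (1.34%), the STAT site TTCNNNGAA in 1 (7.02%), the core of the metal response element TGCNCNC in 10 (44.4%), CCAAT in 7 (33.8%) and TATAAA in 2 (12.4%). A match is a description of the letters only.

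A second set of sequences lies within a region of chromosome 7 that rose throughout. It carries the miR-290 cluster, microRNAs known from embryonic stem cells and the early embryo. Mature sequences are given from RefSeq (GRCm38.p6) with the seed, bases 2 to 8, in capitals, for members that share a seed with another member.
miR-290a-5p: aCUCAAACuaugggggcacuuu
miR-292a-5p: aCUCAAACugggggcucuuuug
miR-293-5p: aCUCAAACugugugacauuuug
miR-292b-5p: aCUCAAAAccuggcggcacuuuu
miR-294-5p: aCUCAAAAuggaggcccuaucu
miR-291a-3p: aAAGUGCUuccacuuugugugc
miR-294-3p: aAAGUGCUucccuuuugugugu
miR-291a-5p: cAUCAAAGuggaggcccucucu
miR-291b-5p: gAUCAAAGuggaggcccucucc

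The seed CUCAAAC was shared by miR-290a-5p, miR-292a-5p and miR-293-5p, CUCAAAA by miR-292b-5p and miR-294-5p, AAGUGCU by miR-291a-3p and miR-294-3p, and AUCAAAG by the 5p arms of miR-291a and miR-291b. All 7 intervals of this region (chr7:3213936-3220754) were called higher. Their sum was 19.8, 22.9, 23.5 and 19.4 CPM in floxed livers 1 to 4 and 38.1, 58.2, 56.4 and 70.8 CPM in knockout livers 1 to 4. The groups did not overlap. Single intervals rose by 0.92 to 1.81, with the smallest change over Mir293 and Mir294 (SE 0.21, adjusted p = 0.0254) and the largest at chr7:3214457-3214957 (SE 0.35, adjusted p = 0.00714). The RefSeq table places the long RNA gene D7Ertd143e in the same stretch. The nearest protein-coding gene, whose bounds the region overlaps, is Nlrp12, a regulator of inflammatory signalling. The Nlrp12 locus rose by 0.68 (SE 0.09, adjusted p = 0.000462). Its 16 intervals, 8 of them called, include the 7 of this region, so its rise is not a separate result. The Nlrp12 promoter, outside the region, went from 10.8 ± 1.22 to 17 ± 2.22 CPM (SD, n = 4), a change of 0.66 (adjusted p = 0.0374). Without knockout liver 4, 2 of the 7 intervals of the region were called.

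Called intervals were rare over promoters. Of 10555 intervals over a RefSeq promoter 12 were called (0.114%), 10 higher and 2 lower, against 783 of the other 95246 (0.822%). Promoter intervals are stronger than most, but the difference was as large among the intervals with the highest levels (12.6 to 130 CPM, 21160 intervals), where 0.113% of promoter intervals and 1.26% of the others were called. The promoter set does not cover every gene, so calls at gene starts may be undercounted. At Car3 the called interval over a bound of the gene (chr3:14863307-14863807, -0.80, adjusted p = 0.0112) did not count as a promoter. In gene bodies 436 of 50808 intervals were called (0.858%) and between genes 240 of 30760 (0.78%). Within 1 kb of a gene's bound 119 of 24233 were called (0.491%), against 0.751% of all intervals. Between genes 177 were higher and 63 lower, while near gene bounds 55 were higher and 64 lower. Beyond 50 kb of any protein-coding gene 62 were higher and 12 lower. The share of all counts within 1 kb of a gene bound was 35.4% ± 0.18 in floxed and 35.4% ± 0.59 in knockout livers (SD, n = 4), a difference of 0.0675 percentage points, smaller than the SD of either group. Each interval's name carries a genotype, and 472 of the 474 higher intervals carry the knockout's name and 319 of the 321 lower intervals the floxed one. Over all intervals the median was 0.13 for knockout-named and -0.13 for floxed-named intervals, and the part of this naming in the calls was not tested.

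**Figure D1:**
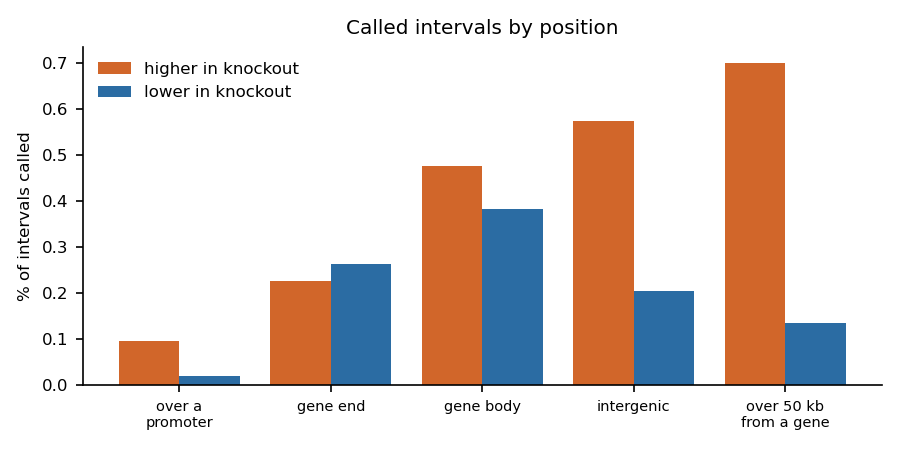
Percent of intervals called higher (orange) or lower (blue) in knockout livers, by position: over a RefSeq promoter, within 1 kb of a gene bound, in a gene body, between genes, and over 50 kb from any protein-coding gene. The positions overlap in part; the share over promoters is the lowest in both directions, at 0.0947% higher and 0.0189% lower.

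The promoters that were called moved as follows. Nr4a1 held 22.5, 21.6, 24.1 and 21 CPM in floxed livers 1 to 4 and 43.3, 37.4, 38.5 and 38.3 CPM in knockout livers 1 to 4 at the interval over its promoter. It rose by 0.82 (SE 0.11, adjusted p = 0.000136), with every knockout above every floxed liver. Dusp8 went from 7.59 ± 1.54 to 14.3 ± 1.06 CPM, a rise of 0.92 (adjusted p = 0.00669), and Gadd45g from 10.4 ± 0.675 to 17.6 ± 1.29 CPM, a rise of 0.75 (adjusted p = 0.00914) (SD, n = 4). The others that rose were the shared promoter of Hdgfl2 and Ubxn6 (0.51), AA986860 (0.81), the lipid droplet coat gene Plin4 (0.74), the metallothionein Mt2 (0.61, with overlapping groups), Ceacam20 (0.91), Nlrp12 and Olfml2b (0.54). Ciart fell from 16 ± 3.34 to 9.99 ± 0.786 CPM (-0.69, adjusted p = 0.0441), and Cyp2a4 from 10.1 ± 1.63 to 5.59 ± 0.635 CPM (-0.85, adjusted p = 0.0275). Nr4a1, Dusp8 and the Hdgfl2 and Ubxn6 promoter kept their call with any 1 library left out, and Gadd45g lost it without knockout liver 3 (0.0512). Cyp2a4 lost it without knockout liver 2, 3 or 4 or floxed liver 2 or 4 (up to 0.175), and Ciart was called in 1 such fit of 8, that without floxed liver 3 (up to 0.252 in the others). The other 6 promoters kept it in 2 to 5 of the 8, and each lost it without knockout liver 3 or 4 and without floxed liver 4 (up to 0.239).

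The promoters of the called loci are described here without a test, since these loci were called on the sum of their intervals, most of which lie outside the promoter. Of the 37 called loci with an interval over their promoter and others beside it, the promoter interval was called in 5 and had the sign of the locus in 34. It changed less than the median of the other intervals in 27. In the direction of the locus the median change was 0.40 at promoters and 0.58 over the rest. This comparison, the split by level and the gene families below were added after values had been seen.

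Egfr, the receptor of epidermal growth factor, which hepatocytes carry at high density, was the widest locus to open. Its sum was 638, 570, 641 and 583 CPM in floxed livers 1 to 4 and 929, 1390, 1040 and 1160 CPM in knockout livers 1 to 4. Each knockout lay above each floxed liver, and the locus rose by 0.89 (SE 0.11, adjusted p = 0.000194). The rise ran over 180.0 kb (chr11:16742197-16921899), where 73 of 133 intervals were called higher and 131 had a change above 0. At the promoter (chr11:16751984-16752484) the floxed level was 43.3 ± 4.23 CPM and the knockout level 45.4 ± 2.64 CPM, a change of 0.07 (SE 0.10, adjusted p = 0.889), against a median of 1.11 over the other 136 intervals of the locus. Among 21 loci of its family, ligands and feedback genes, Egfr was the 1 that was called (0.429% of all loci were called), and the list's median was -0.03. Errfi1, a feedback inhibitor of the receptor, held 2 intervals called lower, with its locus at -0.04 (adjusted p = 0.952).

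**Figure D2:**
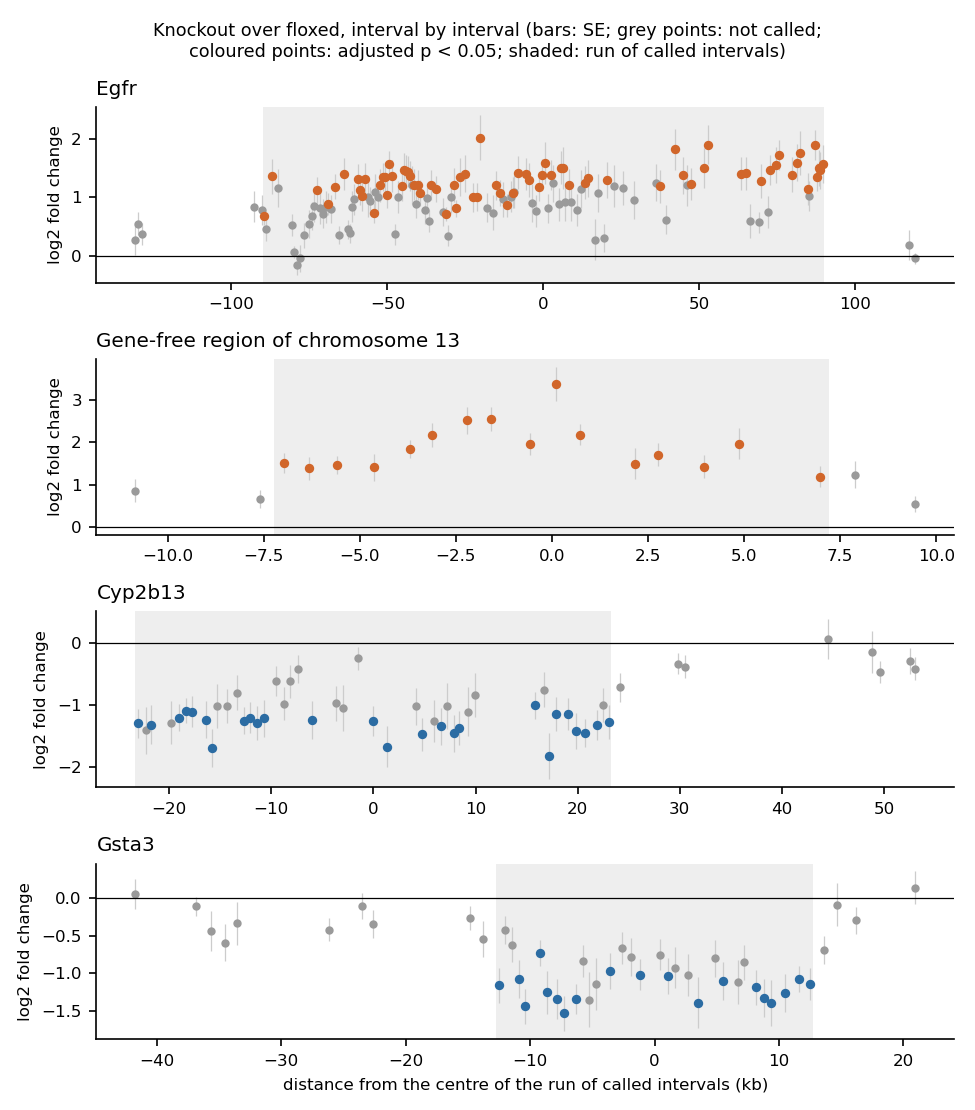
Log2 fold change of single intervals, with its SE, against the distance in kb from the centre of a run of called intervals, for Egfr, a region of chromosome 13 without genes, Cyp2b13 and Gsta3. Orange and blue points are intervals called higher and lower, grey points were not called, and the shaded stretch is the run; within it nearly all points lie on 1 side of 0, as in 131 of 133 intervals at Egfr.

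Runs of this kind held much of the change. A run was defined as at least 3 called intervals of 1 direction with gaps of at most 25 kb. There were 25 higher runs, with 221 of the called intervals (46.6% of all called higher) and a median length of 14.4 kb. In the 24 lower runs lay 179 called intervals (55.8% of all called lower), with a median length of 8.86 kb and a longest run of 46.6 kb. The calls inside thin out without single libraries: without knockout liver 4, 29 of the 73 at Egfr were called and 6 of the 19 at Gsta3, and without knockout liver 3, 10 of the 26 at Cyp2b13. The called intervals inside have the run's sign by definition, and of those not called, 256 of 261 in the higher and 118 of 119 in the lower runs had it too. Over all intervals 49.4% had a change above 0. The runs were chosen from the same libraries, so this sharing of sign is a description and not a separate test. Genes with intervals called in both directions numbered 4 (Alb, Frmd8, Lpin2 and Oat) of 334 with any called interval (2.05% of genes).

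The sharpest gain lay far from any protein-coding gene, on chromosome 13 (chr13:52180359-52194802), 310 kb from Diras2 and 332 kb from Gadd45g. The RefSeq table lists no noncoding gene inside it. Its 16 intervals summed to 56.5, 36.5, 52.9 and 44 CPM in floxed livers 1 to 4 and to 105, 144, 198 and 248 CPM in knockout livers 1 to 4. All 16 were called higher, by 1.18 to 3.38, and the groups did not overlap. The 100 kb window around it rose by 1.14 (SE 0.11, adjusted p = 5.73e-06), and 12 or more of the 16 intervals were called with any 1 library left out. The window that holds Gadd45g rose by 0.31 (adjusted p = 0.0157, and 0.076 at the most without knockout liver 4 or floxed liver 1), as did the Gadd45g locus (0.31, SE 0.07, adjusted p = 0.0491), whose call was kept in 1 of 8 fits with a library left out (that without floxed liver 3) and had an adjusted p of up to 0.159 in the others.

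Other gains away from gene bodies were shorter. On chromosome 12 (chr12:19117337-19123615), 43.6 kb from Gm40847, 5 of 6 intervals were called, with a sum of 25.2, 22.8, 26.9 and 16.5 CPM in floxed and 44, 51.8, 55.5 and 71.8 CPM in knockout livers 1 to 4. This was the locus with the largest rise among those named by the rule (1.29, SE 0.14, adjusted p = 0.000186). A stretch of 2.45 kb on chromosome 2 (chr2:173140318-173142765), 2.12 kb from Gm40011 and 10.3 kb from Pck1, went from 16.4 ± 2 to 33.9 ± 2.12 CPM (SD, n = 4), with 3 of 3 intervals called. Pck1, the gene of the rate-controlling enzyme of gluconeogenesis, held 1 interval called lower at its end (54.7 to 37.2 CPM, a change of -0.55, adjusted p = 0.0111, lost without knockout liver 3 or 4 or floxed liver 2 or 4, up to 0.0771), while its promoter interval stood at 49.9 and 50.5 CPM. A stretch between Vwa5b1 and Camk2n1 on chromosome 4 (chr4:138509792-138516938) went from 10.1 ± 1.1 to 27.3 ± 6.62 CPM, with 3 of 3 called. The stretch near Ang and Rnase4, which encode secreted ribonucleases (chr14:51081049-51086460), went from 36.6 ± 4.13 to 61.6 ± 11.2 CPM.

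Of the 100 kb windows, 146 of 15649 were called (0.933%), 89 higher (0.569%) and 57 lower (0.364%). Groups did not overlap in 127 of the 146 (0.812% of all windows), against 5.83% of all windows, which again follows in part from the call. In 90 of the called windows, 63 of which rose, no gene had a called locus. One such window held Nnmt, which methylates nicotinamide. It stood at 173, 167, 128 and 129 CPM in floxed and 223, 213, 210 and 217 CPM in knockout livers 1 to 4, a rise of 0.53 (SE 0.09, adjusted p = 0.00186), with groups that did not overlap. The window is one of those singled out after its values were seen.

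**Figure D3:**
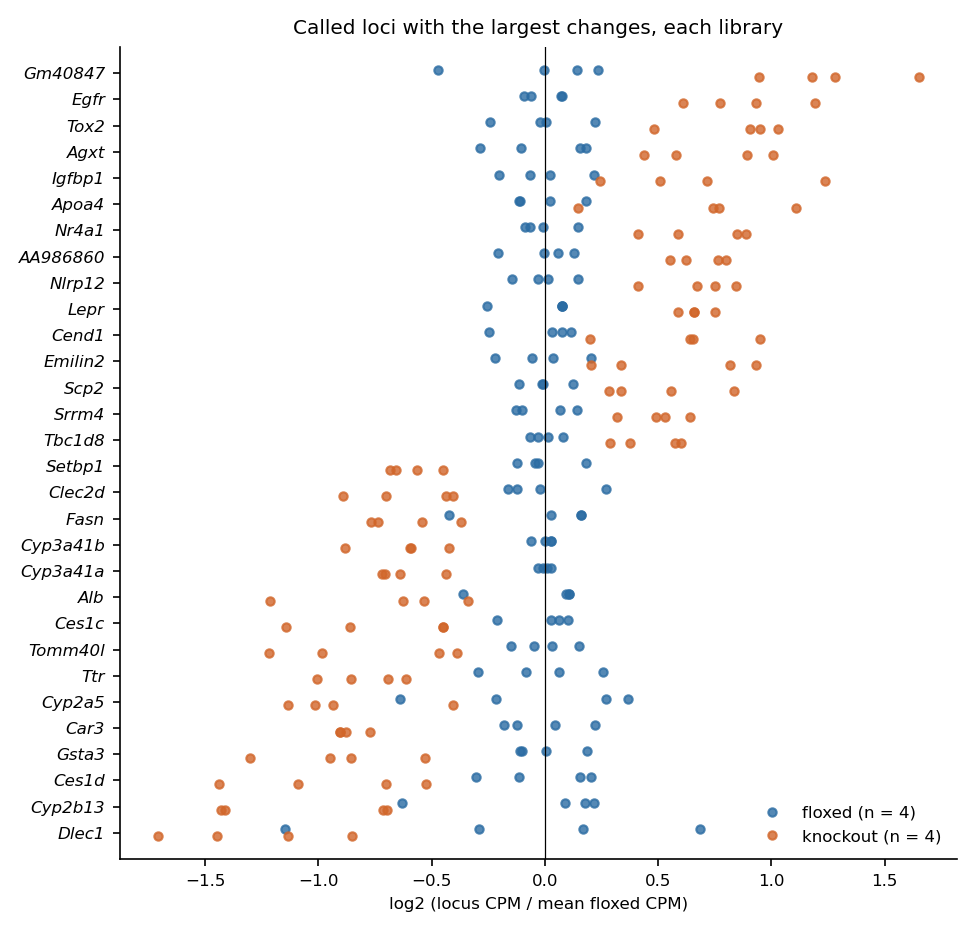
Level of each locus named for its change, as log2 of the locus CPM over the mean of the floxed livers, with 1 point per library (blue, 4 floxed; orange, 4 knockout). At Egfr and Car3 the groups stand clear of each other, while at Dlec1, Cyp2a5, Alb, Fasn and Apoa4 they overlap.

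Among genes of hormone and nutrient signalling, Nr4a1, Igfbp1 and Lepr rose. Nr4a1 held 263, 293, 249 and 253 CPM over its whole locus in floxed livers 1 to 4 and 477, 490, 352 and 398 CPM in knockout livers 1 to 4. The groups stood apart, and the locus rose by 0.70 (SE 0.10, adjusted p = 0.000787). At its far end (chr15:101274232-101274732) the change was 1.60 (SE 0.22, adjusted p = 0.000227), against 0.82 at the promoter, a difference that was not tested, and 14 of 31 intervals were called. Its relatives Nr4a2 (0.18) and Nr4a3 (0.21) were not called. In the list of immediate early genes 1 of 21 loci was called (0.429% of all loci were called). There 16 lay above 0, against 51.6% of all loci, and the median was 0.10 (0.00 over all loci).

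Igfbp1, a binding protein of insulin-like growth factors that insulin represses, rose by 0.73 (SE 0.15, adjusted p = 0.0258), from 219, 256, 241 and 293 CPM in floxed livers 1 to 4 to 359, 415, 299 and 595 CPM in knockout livers 1 to 4. Its lowest knockout stood just above its highest floxed liver. Called intervals lay in the last part of the gene and beyond, with 27.2 against 68.1 CPM at the one with the highest level (1.32, adjusted p = 0.00032), and its promoter stood at 30.1 and 35.6 CPM (0.24, adjusted p = 0.451). It lost its call in DESeq2 and without knockout liver 2 or 4 or floxed liver 1 or 4 (adjusted p up to 0.0969). The other 6 binding protein genes with an interval lay between -0.28 and 0.20 and were not called, and the median of the insulin and IGF list was 0.01 over 22 loci.

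Lepr, the leptin receptor, held 94.7, 119, 119 and 119 CPM in floxed livers and 170, 190, 178 and 178 CPM in knockout livers 1 to 4. It rose by 0.66 (SE 0.08, adjusted p = 0.000194), and the knockout livers lay far from the floxed ones and close to each other. Within the first part of the gene body 5 intervals were called, the one with the lowest adjusted p going from 10.2 to 24.1 CPM (1.24, adjusted p = 8.6e-05), while the 4 intervals past that part were not called. Ghr, the growth hormone receptor of the same list, stood at -0.33 (adjusted p = 0.23).

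Among enzymes, Agxt, which clears glyoxylate in peroxisomes, held 178, 217, 157 and 213 CPM in floxed and 355, 286, 259 and 385 CPM in knockout livers 1 to 4. The groups did not overlap, and it rose by 0.75 (SE 0.12, adjusted p = 0.00285), with 11 of 24 intervals called and all 24 above 0. Scp2, a sterol carrier that also thiolyses branched fatty acids in peroxisomes, rose by 0.52 (SE 0.10, adjusted p = 0.0263), with 77 of 81 intervals above 0. Its call was lost without knockout liver 2 or 4 or floxed liver 1 or 4 (adjusted p up to 0.12). In the amino acid and urea cycle list 1 of 26 loci was called, against 0.429% of all loci, and the median was 0.02.

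Apoa4, an apolipoprotein that fasting and dietary fat induce, rose by 0.73 (SE 0.13, adjusted p = 0.013) with overlapping groups: 57.7, 63.1, 70.5 and 57.5 CPM in floxed and 68.9, 106, 104 and 134 CPM in knockout livers 1 to 4. Its lowest knockout, liver 1, lay within the floxed range. The call was lost without knockout liver 2, 3 or 4 or floxed liver 1 or 4 (adjusted p up to 0.0815). Further loci that rose and kept their call in all 8 fits with 1 library left out were Tox2, a transcription factor of the HMG-box family (33.9 ± 4.4 to 61.4 ± 9.61 CPM, 0.86, adjusted p = 0.000539), and AA986860 (0.69, adjusted p = 0.000194). The rest of the 15 largest rises were Cend1 (0.64, adjusted p = 0.0283), Emilin2, an extracellular matrix glycoprotein (0.61, adjusted p = 0.0351), Srrm4, a splicing factor of neurons (0.50, adjusted p = 0.00587), and Tbc1d8 (0.47, adjusted p = 0.00851). With 1 library left out they kept their call in 2, 3, 7 and 5 of 8 fits, with adjusted p up to 0.134, 0.155, 0.05 and 0.055.

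Several loci with many called intervals did not pass as a whole. Gfra1, a co-receptor of GDNF, held 9 intervals called higher of 94, and 93 were above 0, but its sum had an adjusted p of 0.0598 (0.56, SE 0.13). Insig2, which holds back the maturation of SREBP, held 8 called intervals of 36 with all 36 above 0 (0.58, adjusted p = 0.0683). Plin4 had 0.76 (adjusted p = 0.0847), Lpin1, a phosphatidate phosphatase, 0.59 (0.131), and Mat1a, which makes S-adenosylmethionine, 0.40 (0.221). Among those with lower intervals, Bhmt, a methyltransferase of the methionine cycle, had -0.82 (0.0683) and Trf, transferrin, -0.67 (0.176). In these loci the libraries of a group were far apart, as at Trf with 690, 666, 320 and 294 CPM in knockout livers 1 to 4 against 832, 770, 657 and 875 CPM in floxed livers. Single livers moved others by over 1.5 times: Plin4 was 0.46 and Insig2 0.38 without knockout liver 4, and Bhmt -0.54 without floxed liver 1. All 5 perilipin loci lay above 0 (median 0.25), and 0 were called.

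Car3, carbonic anhydrase 3 of liver and fat, was the locus with the lowest adjusted p. It held 172, 201, 179 and 227 CPM in floxed livers 1 to 4 and 114, 106, 104 and 104 CPM in knockout livers 1 to 4. The groups did not overlap, and the locus fell by 0.86 (SE 0.08, adjusted p = 3.71e-05), with 12 of 18 intervals called. The deepest loss was at 1 end of the gene (chr3:14872425-14872925), from 14.5 to 2.65 CPM (-2.43, SE 0.27, adjusted p = 1.41e-05), whereas an interval within the run, at chr3:14863866-14864366, stood at 17.3 and 15.6 CPM (-0.15). Of 11 carbonic anhydrase loci Car3 was the 1 that was called (0.429% of all loci were called), and their median was -0.13.

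Among genes used more in female than in male liver, sulfotransferases and cytochromes P450 fell. Of 26 loci in that list 5 were called lower and 0 higher (0.196% of all loci were called lower), 24 lay below 0, and the median was -0.30, against 0.00 over all loci and between -0.37 and -0.23 with 1 library left out. The 5 were Sult2a2, Sult2a1, Cyp2b13, Cyp3a41a and Cyp3a41b. Sult2a1, a sulfotransferase of steroids and bile acids, held 38, 49.1, 36.7 and 42.6 CPM in floxed and 19.4, 24, 22.1 and 15.8 CPM in knockout livers 1 to 4. It fell by 1.03 (SE 0.13, adjusted p = 0.000205), with groups far apart. Sult2a2 fell by 1.07 (adjusted p = 0.00131) and Sult2a3, which is outside the list and holds 2 intervals, by 1.12 (adjusted p = 0.00131, but 0.104 with intervals within 5 kb only and 0.191 without its most changed interval), while the other 4 loci of this family lay between -0.28 and -0.21 and were not called. Counts of these near-identical genes, like those of the Cyp2a, Cyp2b, Cyp3a, Ces1 and Mup genes below, may be shared between copies, since no source used here states how reads with several matches were treated.

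Cyp2b13, which encodes a female-biased cytochrome P450, fell over a run of 46.6 kb (chr7:26066929-26113543), where 26 of 45 intervals were called and all 45 lay below 0. Its sum was 461, 504, 280 and 490 CPM in floxed and 264, 268, 161 and 163 CPM in knockout livers 1 to 4. Floxed liver 3 stood near the higher knockouts without overlap, and the locus fell by 1.02 (SE 0.17, adjusted p = 0.00587; 0.05 without floxed liver 4). Cyp2b9 (-0.51, adjusted p = 0.135) held 6 called intervals of 65, and Cyp2b10 stood at -0.14. Cyp3a41a held 149, 147, 145 and 143 CPM in floxed and 89.4, 108, 93.8 and 88.8 CPM in knockout livers 1 to 4, a fall of 0.62 (SE 0.07, adjusted p = 0.000194). Its copy Cyp3a41b fell by 0.61 (adjusted p = 0.000605), and the narrow spread within each group was similar.

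In the Cyp2a family 3 of 4 loci were called lower, against 0.196% of all loci. They were Cyp2a5, which oxidises coumarin and nicotine (-0.84, SE 0.17, adjusted p = 0.0254), Cyp2a22 (-0.49, adjusted p = 0.0456) and Cyp2a12 (-0.47, adjusted p = 0.0291). Cyp2a4 stood at -0.49 (adjusted p = 0.0953) over its locus, with a called promoter. The calls were not stable, since Cyp2a5 kept its call in 2 and Cyp2a22 and Cyp2a12 in 1 of the 8 fits with 1 library left out, with adjusted p up to 0.135, 0.18 and 0.135. All 3 were called without floxed liver 3, and Cyp2a5 also without knockout liver 1, while DESeq2 did not call it. In the list of targets and regulators of CAR and PXR, the nuclear receptors of xenobiotic response, 2 of 25 loci were called lower (Cyp2b13 and Cyp2a5), 21 lay below 0, and the median was -0.32. Over all loci 0.196% were called lower and 51.6% lay above 0. Nr1i3, which encodes CAR, stood at -0.44 (adjusted p = 0.136), and Nr1i2, which encodes PXR, at 0.01 (adjusted p = 0.985). Male-biased genes had 0 of 22 loci called and a median of -0.06; Slco1a1, an organic anion carrier, had the highest value (0.81, adjusted p = 0.0907).

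Loci of the major urinary proteins, pheromone carriers made in hepatocytes, all lay below 0, in 22 of 22 cases with a median of -0.30. By comparison, 51.6% of all loci lay above 0 and 0.196% were called lower. Of the 22 urinary protein loci 3 were called, Mup-ps16 (-0.56, SE 0.09, adjusted p = 0.00285), Mup13 (-0.53, adjusted p = 0.0092) and Mup11 (-0.43, adjusted p = 0.0135). Mup13 and Mup11 lost their call without knockout liver 3 or 4 or floxed liver 4, and Mup11 also without knockout liver 2 or floxed liver 2 (adjusted p up to 0.0621 and 0.0804). They held 0 called intervals, and with intervals within 5 kb only their adjusted p was 0.111 and 0.543. The median of the urinary protein loci was the same as that of the female-biased list, while that of the male-biased list, which holds Mup20, was -0.06. In other families, Cyp2c loci lay below 0 in 11 of 12 cases (median -0.35) and Serpina1 loci in 6 of 6 (median -0.27), with 0 called in both. Gstm and Serpina3 loci had medians of 0.03 and 0.21, also with 0 called.

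Gsta3 and 2 carboxylesterases fell as well. Gsta3, a glutathione S-transferase, held 354, 381, 352 and 433 CPM in floxed and 263, 210, 197 and 154 CPM in knockout livers 1 to 4. The groups did not overlap, and it fell by 0.88 (SE 0.12, adjusted p = 0.000539), with 19 of 39 intervals called in a run of 25.5 kb (chr1:21242641-21268177). Of 23 glutathione S-transferase loci it was the 1 called (0.429% of all loci were called), and their median was -0.07. Ces1d, a carboxylesterase that also hydrolyses triglycerides, fell by 0.90 (SE 0.14, adjusted p = 0.00363), from 185, 231, 162 and 223 CPM in floxed to 123, 139, 94 and 73.9 CPM in knockout livers 1 to 4, and its neighbour Ces1c by 0.70 (adjusted p = 0.00613; 0.05 without floxed liver 4). NRF2 targets had 0 of 18 loci called.

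Among plasma carriers Ttr and Alb fell. Ttr, the carrier of thyroid hormone and retinol-binding protein, held 353, 279, 241 and 308 CPM in floxed and 193, 183, 147 and 163 CPM in knockout livers 1 to 4. With groups that did not overlap, it fell by 0.78 (SE 0.10, adjusted p = 0.000539), and 10 of its 23 intervals were called. Apoa2 fell by 0.54 (adjusted p = 0.00605, and 0.05 without floxed liver 4). Its gene overlaps Tomm40l, given below, and the called intervals of both loci lie in a single run. In the list of 20 plasma carriers 2 loci were called lower, with a median of -0.13, and among the 12 hepatocyte markers 3 (Ttr, Alb and Apoa2), with a median of -0.28. The share called lower over all loci was 0.196%. Markers of Kupffer cells, the resident macrophages, lay above 0 in 12 of 13 loci, against 51.6% of all loci, with a median of 0.21 and 0 called. Their summed level was 233 to 283 CPM in floxed and 274 to 306 CPM in knockout livers, so the groups overlapped. Clec4f, a defining marker, stood at 0.23 (adjusted p = 0.557). The part of cell composition in these falls was not tested.

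Alb, the albumin gene, moved in both directions. Along the gene (chr5:90462371-90477813) all 19 intervals were called lower, with a median of -0.87, and 9 of them without floxed liver 4. The locus held 991, 990, 716 and 981 CPM in floxed and 727, 596, 396 and 635 CPM in knockout livers 1 to 4, and fell by 0.64 (SE 0.14, adjusted p = 0.0456). Floxed liver 3 lay below knockout liver 1, and the call was kept in 2 of 8 fits with a library left out, those without knockout liver 1 and without floxed liver 3, with an adjusted p of up to 0.174 in the others. DESeq2 did not call it either. An interval 10.5 kb upstream (chr5:90449866-90450366) rose instead, from 19, 17.7, 14.6 and 21 CPM in floxed to 56, 42.9, 44.8 and 50.4 CPM in knockout livers 1 to 4. It had the lowest adjusted p of all intervals (1.42, SE 0.12, adjusted p = 8.96e-08). The promoter interval, at chr5:90460679-90461179, stood at 12.9 ± 2.41 and 16.3 ± 4.13 CPM (0.34, SE 0.18, adjusted p = 0.534). The call of the upstream interval held with any 1 library left out (adjusted p up to 2.3e-06). The Cre transgene of the knockout mice is driven by albumin regulatory sequence, and no source used here names the stretch it holds. Reads from a transgene copy of this interval, where there is one, and reads from the gene itself cannot be told apart in these counts.

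In fatty acid and triglyceride synthesis 2 of 24 loci were called lower and 0 higher, against 0.196% and 0.233% of all loci. There were 15 loci below 0 and 9 above 0. The list held 13 intervals called lower and 8 called higher, the latter at Lpin1 and Lpin2. Fasn, the fatty acid synthase, held 192, 175, 128 and 192 CPM in floxed and 133, 118, 103 and 101 CPM in knockout livers 1 to 4. Floxed liver 3 lay below the highest knockout, and the locus fell by 0.59 (SE 0.11, adjusted p = 0.0138). Thrsp, a nuclear protein of lipogenic tissue, fell by 0.51 (SE 0.11, adjusted p = 0.0474). Leaving out 1 library ended the call of Fasn for knockout liver 2, 3 or 4 and floxed liver 1 or 4 (adjusted p up to 0.107), and that of Thrsp for these and floxed liver 2 (up to 0.211). The median of the list was -0.14. Cyp7a1, whose enzyme starts bile acid synthesis from cholesterol, fell by 0.41 (SE 0.09, adjusted p = 0.0499), and its call too was kept only without knockout liver 1 or floxed liver 3 (up to 0.211 in the others). Cholesterol synthesis and uptake had 21 of 25 loci below 0 (51.6% of all loci lay above 0) and a median of -0.15. It had 0 called loci, with 8 intervals called higher, those of Insig2, and 3 called lower.

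The deepest fall among the loci named for their change was at Dlec1, and it was also the least even. It held 105, 190, 261 and 374 CPM in floxed and 106, 129, 85.3 and 71.1 CPM in knockout livers 1 to 4. Floxed liver 1 stood among the knockouts, and the change of -1.24 (SE 0.24, adjusted p = 0.0239) was not called by DESeq2, by voom, or without knockout liver 3 or 4 or floxed liver 4 (adjusted p up to 0.128). The run crosses into Acaa1b, a peroxisomal thiolase, whose locus was not called (-0.44, adjusted p = 0.108).

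The rest of the 15 largest falls were Setbp1, Tomm40l and Clec2d. Setbp1, which encodes a binding partner of the SET protein, held 113, 114, 107 and 132 CPM in the floxed livers and 78.8, 72.5, 85.3 and 73.9 CPM in the knockouts, without overlap. It fell by 0.59 (SE 0.08, adjusted p = 0.000579) and kept its call in all 8 fits with 1 library left out. Tomm40l, a relative of the mitochondrial import channel, fell by 0.72 (SE 0.13, adjusted p = 0.0127), a call lost without knockout liver 3 or floxed liver 4 (up to 0.0849). The gene overlaps Apoa2, and the called intervals of both loci form a single run (chr1:171220753-171223199). Its strongest interval lies within the bounds of both genes, so the falls of Tomm40l and Apoa2 are not separate results. Clec2d, a C-type lectin, fell by 0.59 (SE 0.11, adjusted p = 0.0108), a call lost without knockout liver 3 or 4 or floxed liver 4 (up to 0.0672).

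**Figure D4:**
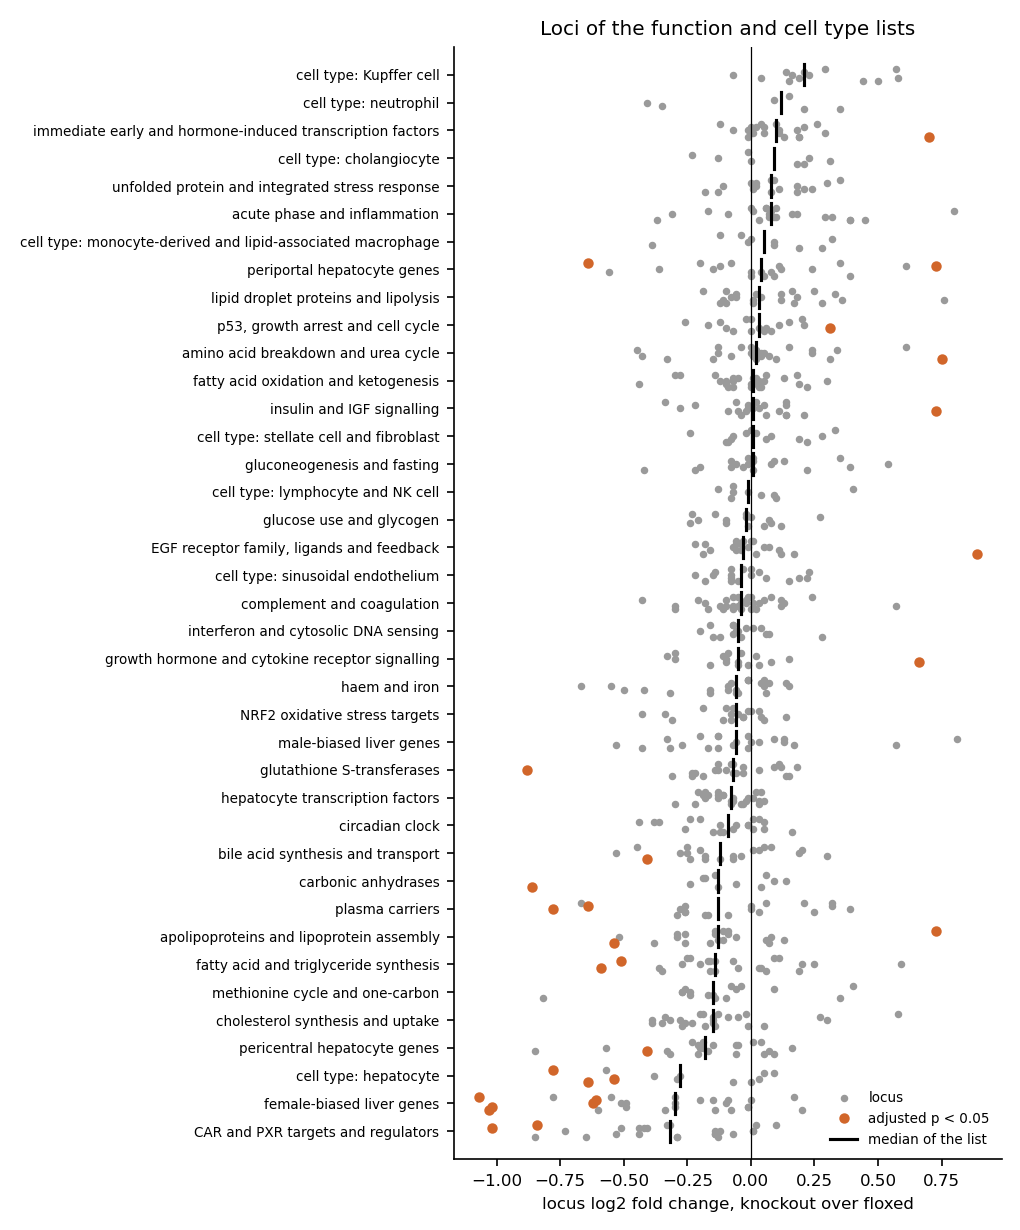
Log2 fold change of each locus in 39 gene lists, ordered by the list's median (black bar); orange loci were called. The lists of CAR and PXR targets, female-biased genes and hepatocyte markers have the lowest medians (-0.32, -0.30 and -0.28), and that of Kupffer cells the highest (0.21).

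Most other functions had no called locus. Of all loci 0.429% were called, so by that share a list of this size would seldom hold one. Among the lists without one were the unfolded protein response and the interferon and DNA sensing genes, which also had 0 called intervals (0.751% of all intervals were called). The acute phase list had 19 of 23 loci above 0, against 51.6% of all loci, with a median of 0.08. Saa2, a serum amyloid protein, had its highest value (0.80, adjusted p = 0.0978). Fatty acid oxidation (28 loci, median 0.01), gluconeogenesis (19 loci, median 0.01), glucose use (15 loci, median -0.02), the clock (20 loci, median -0.09) and complement and coagulation (32 loci, median -0.04) had no called locus either. Each of these lists did hold called intervals. Markers of sinusoidal endothelium, stellate cells, cholangiocytes, lymphocytes, neutrophils and other macrophages had 0 called loci and medians between -0.04 and 0.12.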

How the data were processed

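Accessible chromatin was profiled by ATAC-seq in 4 knockout and 4 floxed livers of the high-fat arm. The authors deposited whole-number counts per interval and library, on mm10. The submitters' processing notes name bedtools, HOMER 4.11, Bowtie2 2.4.2, Trim Galore 0.6.7 and MACS2 2.2.7.1 but do not say what each did. No source used here tells how duplicate and mitochondrial reads were handled, if cut sites were shifted, or if intervals were called per library.

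The counts were tested in R 4.3.3 by edgeR 4.0.16, using filterByExpr, TMM factors, a quasi-likelihood model with genotype as its 1 term, two-sided, and Benjamini-Hochberg adjusted p under 0.05. It ran separately over intervals, loci (counts summed over the intervals of the nearest protein-coding RefSeq gene of GRCm38.p6 within 50 kb, from 21631 such genes) and 100 kb windows. The script was tested on simulated data. Alternatives were DESeq2 1.42.0, voom from limma 3.58.1, library totals in place of TMM, other filters, other definitions of a locus or window, the replicate number as a block, and leaving out each library in turn. The closest 2 libraries of a group had a chi-square per degree of freedom of 2.49, above counting noise, so each counted as its own replicate. Totals of 7.59 to 10.4 M counts per library set the counting precision, and the biological coefficient of variation was 0.17 for intervals and 0.0966 for loci.

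The loci named are the 15 with the largest called rise and the 15 with the largest called fall (at least 3 intervals and a level at or above the median locus), the 10 genes with the most intervals called in each direction, up to 3 called loci per list and direction, the genes of the 5 longest runs per direction, and Matr3. Other genes named were chosen after their values were seen. The comparison, the 39 gene lists and this rule were chosen with earlier results of these data known. GC content was not examined, since no genome sequence was used here.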

Additional observations from a re-analysis of the deposited data

Results flagged for a closer look

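In 2 groups of livers 1 library stood far from the other 3 by Dixon's criterion, among 76 groups examined for 37 loci and the share of counts at gene ends. Chance marks about 1 in 20 groups. At Lepr, floxed liver 1 held 94.7 CPM while floxed livers 2 to 4 each held 119 CPM, so it lay farther from the knockouts (170 to 190 CPM) than the others. At Alb, floxed liver 3 held 716 CPM against 981 to 991 CPM in the other floxed livers, and lay within the knockout range (396 to 727 CPM).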

How the results depend on the processing

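Of the 70 called loci, 66 were called by DESeq2, 67 by voom and 70 with the replicate block, and all kept their sign in these fits and with each library left out. The number of loci called was 143 with DESeq2, 107 with voom, 312 with the replicate block, 14 with every interval weighing the same (12 of the 70 among them), 32 without the most changed interval of each locus and 27 at an adjusted p below 0.01. With 1 library left out it ranged from 21 (without floxed liver 4) to 237 (without floxed liver 3), and higher loci made up 54.3% of calls with all libraries, 39.2% without floxed liver 3, 64.3% with every interval weighing the same and 37.5% without the most changed interval. Called intervals numbered 795 in the full fit, 1420 with the replicate block, 271 at an adjusted p below 0.01, and 304 (without knockout liver 4) to 1189 (without floxed liver 3) with 1 library left out, where the share called higher was 48.4% without floxed liver 3 against 59.6% with all. Called windows numbered 146 in the full fit, 510 with the replicate block, 29 with 500 kb windows, 45 at an adjusted p below 0.01, and 55 to 345 with 1 library left out. The cause of these changes was not tested. Same-numbered libraries correlated at 0.0676, 0.131, 0.177 and -0.0105 in their deviations from the group means, and 4 of 8 libraries correlated best with their own number, so the numbers were not taken to pair the animals. The Kcnj15 locus, 0.73 in the full fit, was -0.36 with intervals within 5 kb only. The group difference in the share of counts at gene ends, 0.0675 percentage points, was -0.209 within 5 kb of a bound and ranged from -0.18 (without knockout liver 1) to 0.288 (without knockout liver 2) with 1 library left out, with -0.000382 without floxed liver 3. The smallest called change was 0.31 for loci and 0.47 for intervals, and smaller changes were not called at this depth with 4 livers a group.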

Other observations

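Called intervals were spread over 20 chromosomes. Chromosomes 11 and 7 held the largest shares, 1.45% of their intervals (92 higher and 7 lower) and 1.39% (26 higher and 65 lower), against 0.751% over all. The Egfr run holds 73 of the 92 higher intervals of chromosome 11, and the Cyp2b13 run 26 of the 65 lower ones of chromosome 7. Further lower runs, each with 3 or 4 called intervals, lay at Clec2d (4, median -1.34), across Tomm40l and Apoa2 (4, -0.82), across Dock6 and Angptl8, an inhibitor of lipoprotein lipase (3, -1.54), at Adh1, an alcohol dehydrogenase (4, -0.92), at Apob, the backbone of very low density lipoprotein (4, -0.85), and at Dbp, a clock output factor (3, -0.98). With any 1 library left out at least 3 intervals stayed called at Clec2d, 3 at Tomm40l and 2 at Dock6, while Adh1, Apob and Dbp had 0 without knockout liver 3.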
